A study of Mus musculus with 6 samples.

Results

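The genes described here are 6 receptors and adhesion molecules that mark endothelial cells (*Pecam1*, *Cdh5*, *Kdr*, *Flt1*, *Tek* and *Tie1*) and 4 ligands that act on vessels (*Vegfa*, *Vegfc*, *Vegfd* and *Angpt2*). They were chosen by symbol, with earlier results of these data known, and are 10 of the 18152 genes in the expression table. All 10 passed the filter on low counts, which kept 14131 genes. RNA was sequenced from the inner enamel epithelium (IEE), the cell layer facing the dental papilla, of the mandibular first molar (MM1) at E18.5. The study asked which genes change in this tissue when *Kdf1*, keratinocyte differentiation factor 1, is deleted from epithelial cells. The control libraries came from *Kdf1 fl/fl* mice, which carry the floxed alleles without Cre and are called WT in the sample labels. The cKO libraries came from *K14-Cre;Kdf1 fl/fl* mice, labelled Kdf1 deletion. Both lines were on a C57BL/6J background, and each group had 3 libraries labelled as biological replicates. The K14 promoter drives Cre in keratin 14 epithelial cells, so endothelial cells of the cKO mice are not the cells targeted for deletion. The IEE was cut out by laser capture microdissection, and such a cut can take in cells from the border of the layer.

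VEGF ligands bind receptor tyrosine kinases on endothelial cells. VEGF-A acts mainly through VEGFR2, the product of *Kdr*, while VEGFR1, the product of *Flt1*, binds it tightly and limits the amount free to act. VEGF-C and VEGF-D act on VEGFR3, the product of *Flt4*, which is known above all for the growth of lymphatic vessels. Angiopoietin-1 activates the TIE2 receptor (*Tek*) and stabilises vessels, and angiopoietin-2 (*Angpt2*), made by endothelial cells themselves, can counter it. The vessels of the tooth germ run mainly in the dental papilla and the dental follicle, whereas VEGF-A is also made by epithelial cells.

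All 6 libraries were of similar depth, between 14713918 and 16675133 counts, and a count of 0 allowed at most 0.182 to 0.198 CPM, the counts scaled to library size. *Kdf1* was at 44.3 to 52.8 CPM in the control libraries and at 0 to 0.0629 CPM in the cKO libraries. Markers of dental epithelium, 11 genes, were present in all libraries. Their sum was 12700 to 44400 TPM, a level scaled for gene length, in control and 4610 to 8190 TPM in cKO libraries. *Amelx*, the amelogenin gene, was a large part of the control sums, at 4017 to 32209 TPM. It was at 9.45 to 699 TPM in cKO libraries, so the summed level is no measure of epithelial content. Markers of dental papilla were present as well, at 1500 to 6390 and 3570 to 4500 TPM over 14 genes, so the libraries did not hold epithelial RNA alone. The cKO 1 library stood apart for vascular genes. It was the highest of the 6 libraries for 9 of the 10 genes described here, against 20.5% of all genes tested. Values without it are given beside the results.

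Compared by TPM, *Vegfa* had the highest control mean of the 10 genes at 63.3 TPM. It was followed by *Cdh5* at 47.1, *Pecam1* at 36.2, *Tie1* at 18.8, *Kdr* at 15.3, *Flt1* at 10.2 and *Tek* at 7.51 TPM. The other ligands were at the bottom of the order, with *Angpt2* at 2.23, *Vegfc* at 2.02 and *Vegfd* at 0.933 TPM. Neighbours in this order often overlapped between libraries. *Vegfa* (56.5 to 72.1 TPM) and *Cdh5* (34.2 to 57.7 TPM) did so, as did *Tie1* (15.3 to 23.4 TPM) and *Kdr* (12.3 to 17.0 TPM). In the cKO group *Cdh5* came first at 97.3 TPM and *Pecam1* at 82.9 and *Vegfa* at 75.1 TPM followed, with overlapping ranges. *Angpt2* had a mean of 12.3 TPM there.

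The criterion asked for a log2 fold change of 1 or more in size and an adjusted p no higher than 0.05 (Benjamini-Hochberg). By edgeR's quasi-likelihood test, 0 of the 10 genes passed it. Among all genes tested 61 passed it, or 0.432%, and 20 of them, or 0.142%, were higher in the cKO group. All 10 genes had a log2 fold change above 0, with a median of 0.95, where the median of all genes tested was 0.00. At an unadjusted p of at most 0.05, 5 of the 10 were higher (*Pecam1*, *Cdh5*, *Vegfc*, *Vegfd* and *Angpt2*), against 13.0% of all genes. The 3 cKO libraries lay above the 3 control libraries for 3 of the 10 (*Pecam1*, *Vegfc* and *Vegfd*), against 14.5% of all genes. DESeq2 with the same criterion called 4 of the 10 higher, against 5.05% of all genes, and edgeR with the replicate number as a block called 2, against 4.16%. Without cKO replicate 1 the median log2 fold change of the 10 was 0.48, and without cKO replicate 3 it was 1.31. The p-values weigh the difference between the groups against the spread between these libraries.

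**Figure D1:**
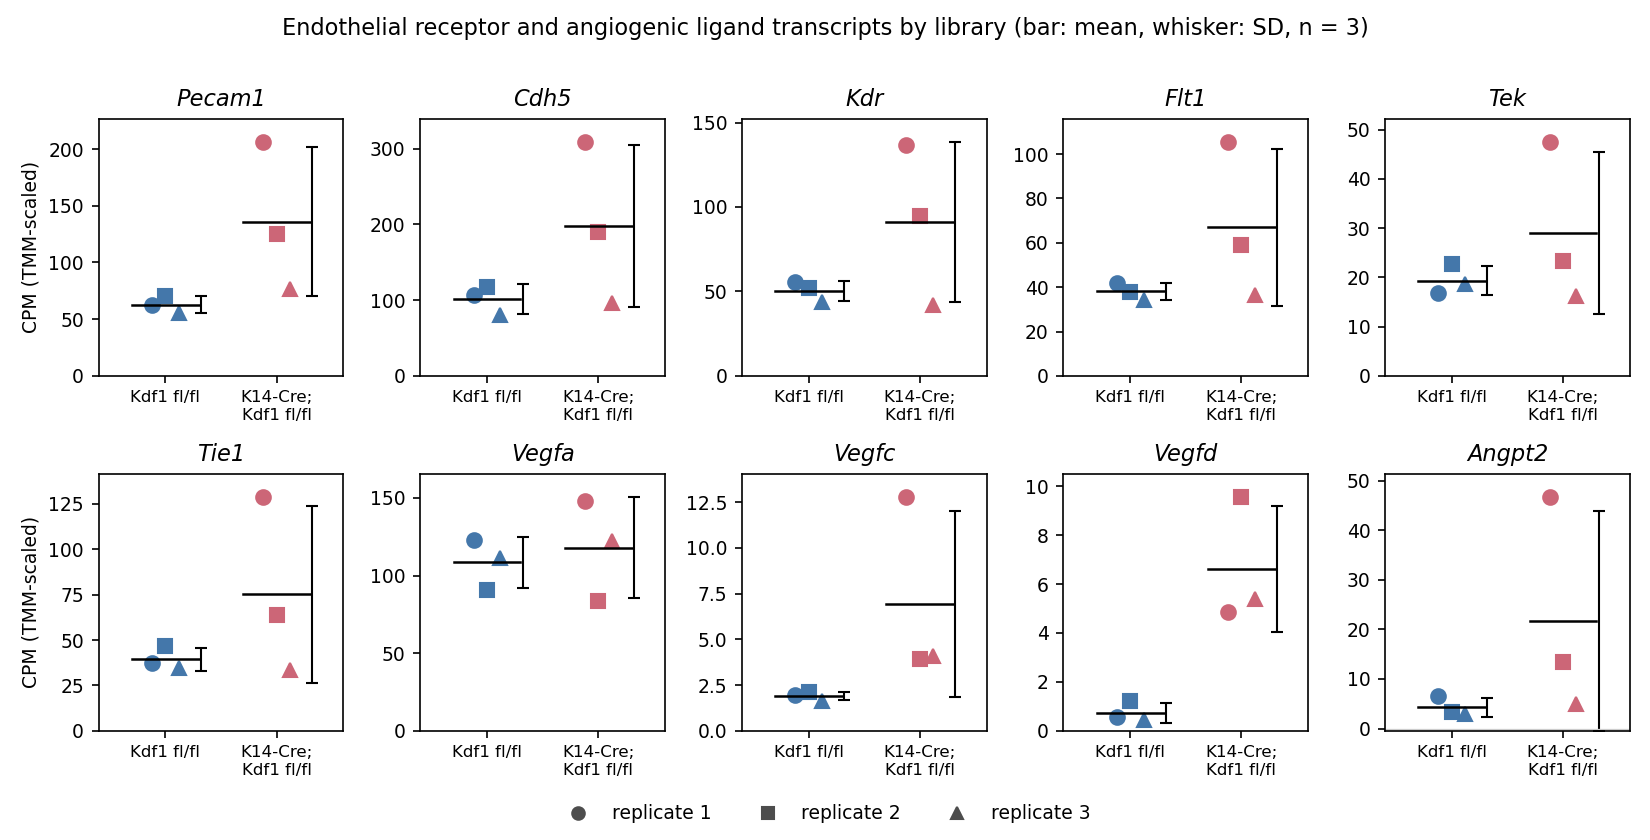
Normalised expression (CPM, linear axes that differ by gene) of the 10 genes in each of the 3 control and 3 cKO libraries, with the mean and SD of each group. The cKO libraries spread far more than the controls for every receptor, and *Vegfd* has its highest point in cKO 2.

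PECAM-1 and VE-cadherin are the adhesion molecules of endothelial cell contacts. *Pecam1* was at 62.9, 70.1 and 55.5 CPM in control 1, 2 and 3 and at 206, 125 and 76.3 CPM in cKO 1, 2 and 3. Every cKO library was above every control library, with means of 62.8 ± 7.34 and 136 ± 65.6 CPM (SD, n = 3 each). The log2 fold change was 1.11 (SE 0.33), with an adjusted p of 0.114 in edgeR's quasi-likelihood test and 0.0137 in DESeq2. *Cdh5*, which encodes VE-cadherin, was at 107, 118 and 79.8 CPM in the controls and at 309, 189 and 95.6 CPM in the cKO libraries. Its groups overlapped, since cKO 3 lay below control 1 and control 2. For *Cdh5* the log2 fold change was 0.96 (SE 0.39), with an adjusted p of 0.189 in edgeR's quasi-likelihood test. In bulk RNA of this kind, more cells of a type and more RNA per cell cannot be told apart.

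The VEGF receptors were also highest in cKO 1 and lowest in cKO 3 among the cKO libraries. *Kdr*, the main signalling receptor of VEGF-A, was at 55.4, 52.0 and 43.5 CPM in the controls and at 136.5, 94.7 and 41.9 CPM in the cKO libraries. *Flt1* was at 42.1, 37.9 and 34.4 CPM in the controls and at 105, 59.0 and 36.3 CPM in the cKO libraries. For both genes cKO 1 and cKO 2 lay above all controls, while cKO 3 lay below the lowest control (*Kdr*) or within the controls (*Flt1*). In log2 terms the fold change was 0.86 (SE 0.38) for *Kdr* and 0.81 (SE 0.35) for *Flt1*, with adjusted p-values of 0.221 and 0.211 in edgeR's quasi-likelihood test. *Kdr* passed the criterion when cKO replicate 3 was left out, as did *Pecam1*.

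The TIE receptors shared this order of the cKO libraries. *Tek*, the angiopoietin receptor, was at 16.8, 22.7 and 18.6 CPM in the controls and at 47.5, 23.4 and 16.2 CPM in the cKO libraries. Only cKO 1 lay well above the controls, and the difference of 0.58 in log2 (SE 0.38) had an adjusted p of 0.382 by edgeR. Without cKO replicate 1 it was 0.04. *Tie1*, an orphan receptor that modulates TIE2, was at 37.3, 46.5 and 34.5 CPM in the controls and at 129, 63.6 and 33.2 CPM in the cKO libraries. The cKO 3 value was below all controls, and the log2 fold change of 0.93 (SE 0.44) had an adjusted p of 0.243 in edgeR's quasi-likelihood test. Set against the control mean, cKO 1 was 2.45-fold (*Tek*) to 3.28-fold (*Pecam1*) over the 6 receptors and adhesion genes. The cKO 2 library was 1.21-fold (*Tek*) to 2.00-fold (*Pecam1*), and cKO 3 was 0.834-fold (*Kdr*) to 1.22-fold (*Pecam1*). The median log2 fold change of these 6 genes was 0.89, and it was 0.40 without cKO replicate 1.

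**Figure D2:**
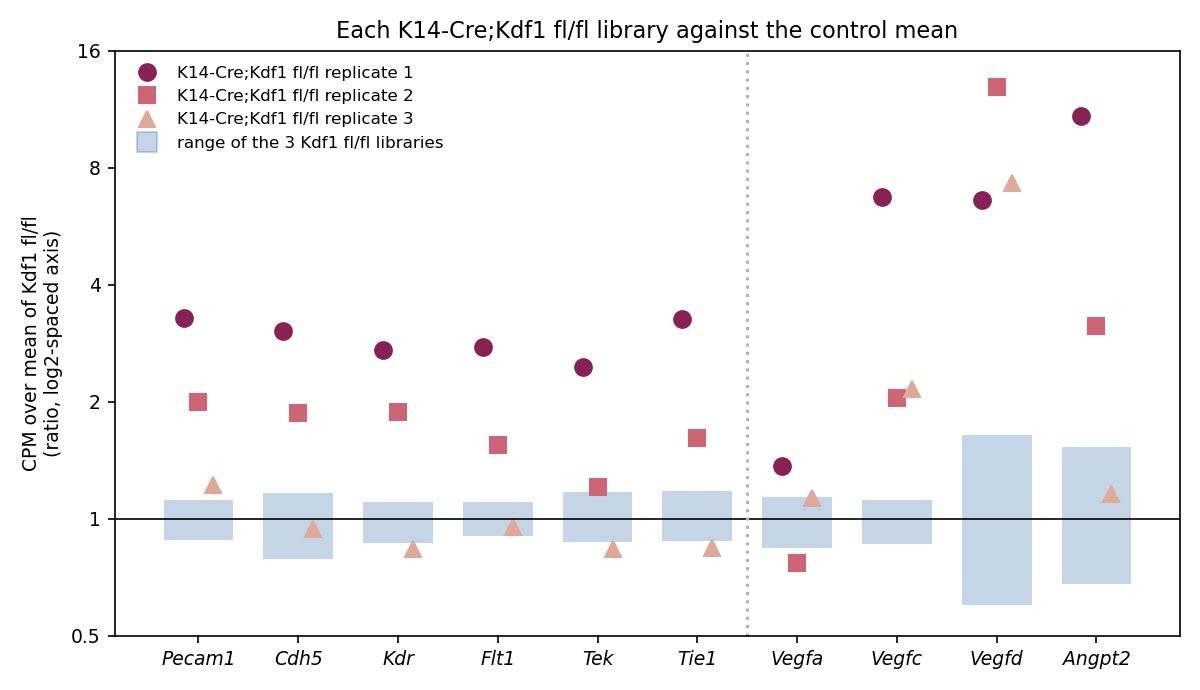
Fold of each cKO library over the mean of the 3 controls for the 10 genes (CPM, log axis), with a line at equal level. The receptors are highest in cKO 1 and lowest in cKO 3, *Vegfa* stays between 0.768-fold and 1.37-fold, and *Vegfd* is 6.59-fold to 12.9-fold in all 3 libraries.

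Of the ligands, *Vegfa* differed least between the groups. It was at 123, 91.0 and 111 CPM in the controls and at 148, 83.4 and 122 CPM in the cKO libraries. The groups overlapped throughout, at means of 108.5 ± 16.3 and 118 ± 32.7 CPM (SD, n = 3 each). For *Vegfa* the log2 fold change was 0.12 (SE 0.22), with an adjusted p of 0.771 in edgeR's quasi-likelihood test, and it turned to -0.06 without cKO replicate 1.

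*Vegfd*, a ligand of VEGFR3, showed the largest log2 fold change of the 10 genes. It was at 0.565, 1.21 and 0.442 CPM in the controls and at 4.87, 9.57 and 5.41 CPM in the cKO libraries. The rounded counts behind these levels were 9, 20 and 7 in the controls and 77, 152 and 82 in the cKO libraries. Each cKO library held more than every control, and cKO 2, not cKO 1, was the highest. Means were 0.740 ± 0.413 and 6.61 ± 2.57 CPM (SD, n = 3 each), an 8.83-fold difference on the fitted scale, or 3.14 in log2 (SE 0.49). By edgeR's quasi-likelihood test its adjusted p of 0.0512 was just outside the criterion. DESeq2 gave an adjusted p of 5.62e-07 and the blocked edgeR fit one of 0.00695, so *Vegfd* rose by either of those fits.

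*Vegfc*, the other VEGFR3 ligand, was at 1.95, 2.12 and 1.64 CPM in the controls and at 12.8, 3.90 and 4.09 CPM in the cKO libraries. All cKO values exceeded all controls, and cKO 1 was far above the other two. The log2 fold change was 1.86 (SE 0.52), with an adjusted p of 0.101 in edgeR's quasi-likelihood test and 0.0108 in DESeq2. Its deposited counts were not whole numbers in any library, so its reads were partly estimated.

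*Angpt2* had the widest spread in the cKO group relative to its mean, with 21.7 ± 22.1 CPM (SD, n = 3) against 4.28 ± 1.97 CPM in the control group. It was at 6.53, 3.39 and 2.91 CPM in the controls and at 46.8, 13.4 and 4.94 CPM in the cKO libraries. The cKO 3 value lay below control 1, so the groups overlapped, and the cKO libraries were 10.9-fold, 3.13-fold and 1.16-fold over the control mean. The log2 fold change was 2.34 (SE 0.79), with an adjusted p of 0.140 in edgeR's quasi-likelihood test. DESeq2 gave an adjusted p of 0.00999 and the blocked edgeR fit one of 0.0397, and *Angpt2* passed the criterion in both. Without replicate 1 of both groups, the blocked fit called *Vegfd* and *Angpt2*. That fit has few libraries left for its terms, and no source states its pairing. Its calls, here and below, are weak support. DESeq2 without cKO replicate 1 called *Vegfd* alone of the 10. When cKO replicate 1 was left out of the edgeR fit, the log2 fold change was 3.33 for *Vegfd*, 1.12 for *Angpt2* and 1.08 for *Vegfc*. It was 0.70 for *Pecam1* and 0.31 to 0.50 for *Cdh5*, *Kdr*, *Flt1* and *Tie1* in that fit.

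RefSeq gave windows around the transcript start, from 250 bases before it to 50 after, for 7 of the 10 genes in build GRCm38.p6, with 8 windows in all. ETS factors, which many endothelial genes depend on, bind sites built on the core GGAA, which stood in all 8 windows and in 96.0% of windows of all genes. The longer word GGAAGT was searched on both strands, as was the core. It stood once each in the windows of *Kdr*, *Flt1*, *Tie1* and *Vegfd* and in 1 of the 2 windows of *Vegfa*. That *Vegfa* window had the more downstream start (chr17:46025114-46025413), and the word lay after the start. The upstream *Vegfa* window (chr17:46032328-46032627) did not hold the word. The windows of *Tek* and *Vegfc* did not hold it either, and 23.8% of the 32851 windows of the same length did. TATAAA, the core TATA box, stood in the windows of *Flt1* and *Vegfd* and in 13.6% of all windows. The stretches before the start are shown for the 4 receptors with a window, *Tek* without the word included, and for the ligand with the largest fold change, so that the position of the word can be compared. They are written 5′ to 3′ on the gene's strand, with GGAAGT or its reverse complement ACTTCC in capitals. A match describes these letters only.
*Kdr*, chr5:75978456-75978705, minus strand: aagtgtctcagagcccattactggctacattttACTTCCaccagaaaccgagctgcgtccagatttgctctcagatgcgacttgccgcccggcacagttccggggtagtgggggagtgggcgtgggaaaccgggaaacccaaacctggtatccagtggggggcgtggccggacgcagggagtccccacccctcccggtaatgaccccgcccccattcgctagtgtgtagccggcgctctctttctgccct
*Flt1*, chr5:147726012-147726261, minus strand: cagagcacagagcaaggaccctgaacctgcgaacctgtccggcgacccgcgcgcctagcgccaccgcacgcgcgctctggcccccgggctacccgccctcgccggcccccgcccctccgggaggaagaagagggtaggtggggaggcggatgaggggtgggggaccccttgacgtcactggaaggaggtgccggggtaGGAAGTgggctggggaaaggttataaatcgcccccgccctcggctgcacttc
*Tek*, chr4:94739039-94739288, plus strand: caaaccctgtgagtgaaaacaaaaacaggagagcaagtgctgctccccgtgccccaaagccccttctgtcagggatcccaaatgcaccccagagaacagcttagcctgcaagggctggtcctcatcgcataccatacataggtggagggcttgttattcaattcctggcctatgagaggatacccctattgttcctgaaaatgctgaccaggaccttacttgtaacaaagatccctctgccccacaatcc
*Tie1*, chr4:118489850-118490099, minus strand: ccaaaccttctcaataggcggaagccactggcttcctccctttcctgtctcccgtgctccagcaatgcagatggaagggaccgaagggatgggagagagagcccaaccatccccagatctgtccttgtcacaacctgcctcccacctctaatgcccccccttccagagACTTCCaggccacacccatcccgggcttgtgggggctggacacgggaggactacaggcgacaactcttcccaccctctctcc
*Vegfd*, chrX:164373272-164373521, plus strand: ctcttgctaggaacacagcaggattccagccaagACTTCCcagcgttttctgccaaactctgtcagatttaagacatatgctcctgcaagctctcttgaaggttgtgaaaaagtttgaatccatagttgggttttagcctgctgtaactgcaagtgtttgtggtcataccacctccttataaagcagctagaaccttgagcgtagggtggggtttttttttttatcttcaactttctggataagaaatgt

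To compare the genes within a library, each TPM value was divided by that of *Cdh5* in the same library. The ratio of *Kdr* was 0.343, 0.290 and 0.359 in the controls and 0.291, 0.329 and 0.289 in the cKO libraries. *Flt1* gave 0.185 to 0.250 and 0.185 to 0.221, and *Tie1* gave 0.360 to 0.446 and 0.346 to 0.430. The groups overlapped for all 5 other receptors and adhesion genes on this scale, *Pecam1* and *Tek* included. *Vegfa* per *Cdh5* was 1.46, 0.979 and 1.79 in the controls and 0.626, 0.573 and 1.72 in the cKO libraries, also with overlap. *Vegfd* per *Cdh5* was 0.0176, 0.0260 and 0.0126 in the controls and 0.0365, 0.120 and 0.133 in the cKO libraries. *Vegfc* per *Cdh5* was 0.0419, 0.0413 and 0.0473 in the controls and 0.0955, 0.0479 and 0.0980 in the cKO libraries. Both ratios were higher in every cKO library, which held for 2.69% of all genes, although the lowest cKO ratio of *Vegfc* was close to the highest control ratio. *Angpt2* per *Cdh5* overlapped, at 0.0324 to 0.0692 in control and 0.0584 to 0.171 in cKO libraries. The ratios are a description: no test of them was run, and an exact permutation test of 3 libraries against 3 cannot go below p = 0.10.

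**Figure D3:**
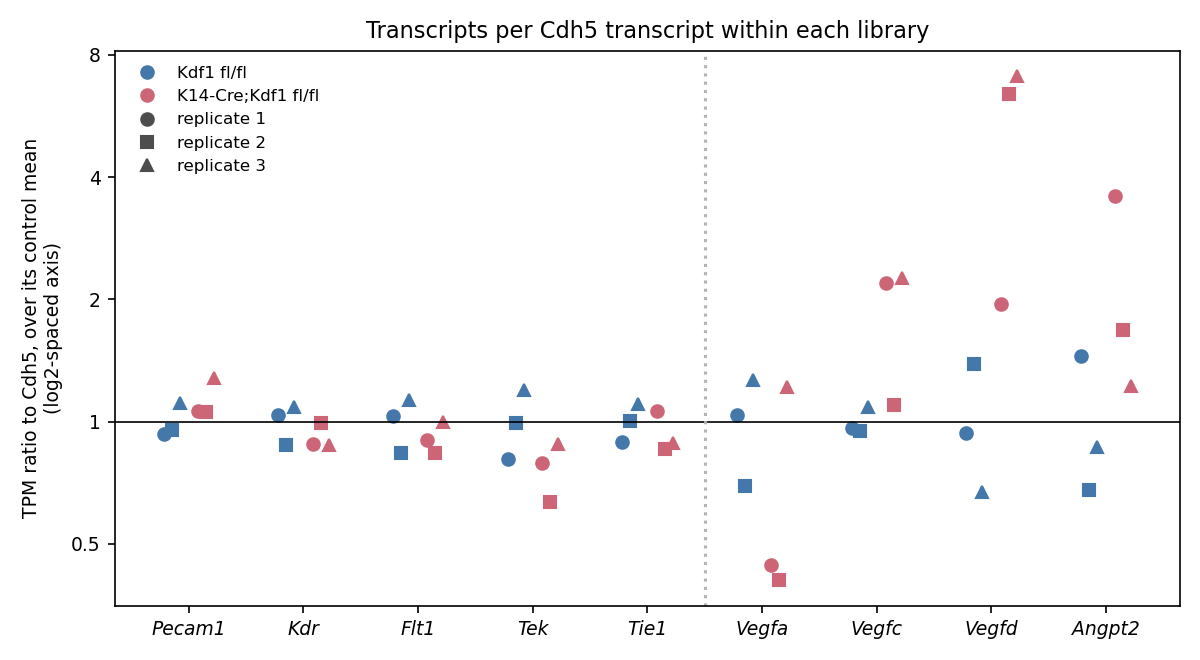
TPM of each gene divided by TPM of *Cdh5* in the same library and then set against the control mean of that ratio (log axis), for the 3 control and 3 cKO libraries. The receptor ratios overlap between the groups, and *Vegfc* and *Vegfd* lie higher in every cKO library.

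The angiopoietin balance differed clearly from the controls in cKO 1 and cKO 2, while its ratios in cKO 3 were close to a control. No test of the angiopoietin ratios was run. *Angpt1*, which encodes the activating TIE2 ligand, was at 72.6, 70.6 and 75.6 CPM in the controls and at 56.7, 35.6 and 45.4 CPM in the cKO libraries. All cKO libraries were below all controls, and the log2 fold change of -0.67 (SE 0.17) had an adjusted p of 0.0888 in edgeR's quasi-likelihood test, 0.0233 in DESeq2 and 0.0380 with the replicate block. Its change was under the fold limit in all 3 fits. Without cKO replicate 1 the log2 fold change of *Angpt1* was -0.83 in edgeR, with an adjusted p of 0.104 in its quasi-likelihood test. DESeq2 without that library gave -0.85 with an adjusted p of 0.000312, also under the fold limit. *Angpt2* per *Angpt1*, by TPM, was 0.108, 0.0568 and 0.0444 in the controls and 0.979, 0.442 and 0.116 in the cKO libraries. The lowest cKO ratio was just above the highest control ratio. *Angpt1* per *Tek* was 4.83, 3.54 and 4.76 in the controls and 1.35, 1.75 and 3.52 in the cKO libraries, lower in each but by little in cKO 3.

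Of the 8 other genes of VEGF and angiopoietin signalling in the list, 7 were tested. No gene of them passed the criterion in edgeR or with the replicate block. At an unadjusted p of at most 0.05, 4 were higher and 1 lower (*Angpt1*), against 24.5% of all genes in either direction. DESeq2 called *Nrp1* and *Ptprb* higher, against 5.05% of all genes. Without cKO replicate 1, DESeq2 called 0 of the 7, with a log2 fold change of 0.58 for *Nrp1* and 0.71 for *Ptprb*. *Flt4*, the VEGFR3 gene, was at 20.2, 16.6 and 15.7 CPM in the controls and at 51.1, 25.9 and 15.9 CPM in the cKO libraries, with overlap. The log2 fold change was 0.82 for *Flt4*, 1.14 for the VEGF co-receptor *Nrp1* and 0.73 for its relative *Nrp2*. It was 1.47 for *Ptprb*, the endothelial phosphatase that acts on TIE2, and 1.43 for *Pgf*, a VEGFR1 ligand. *Vegfb*, another VEGFR1 ligand, had a log2 fold change of -0.09. Leaving cKO replicate 1 out of the edgeR fit gave 0.27 for *Flt4*, 0.59 for *Nrp1*, 0.44 for *Nrp2*, 0.72 for *Ptprb* and 0.73 for *Pgf*. The same fit gave 0.02 for *Vegfb* and -0.83 for *Angpt1*. *Angpt4*, a further angiopoietin, missed the filter with counts of 4, 9 and 0 in the controls and 63, 102 and 4 in the cKO libraries, where cKO 3 lay within the controls. The median over the 7 genes was 0.82, and 0.44 without cKO replicate 1.

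**Figure D4:**
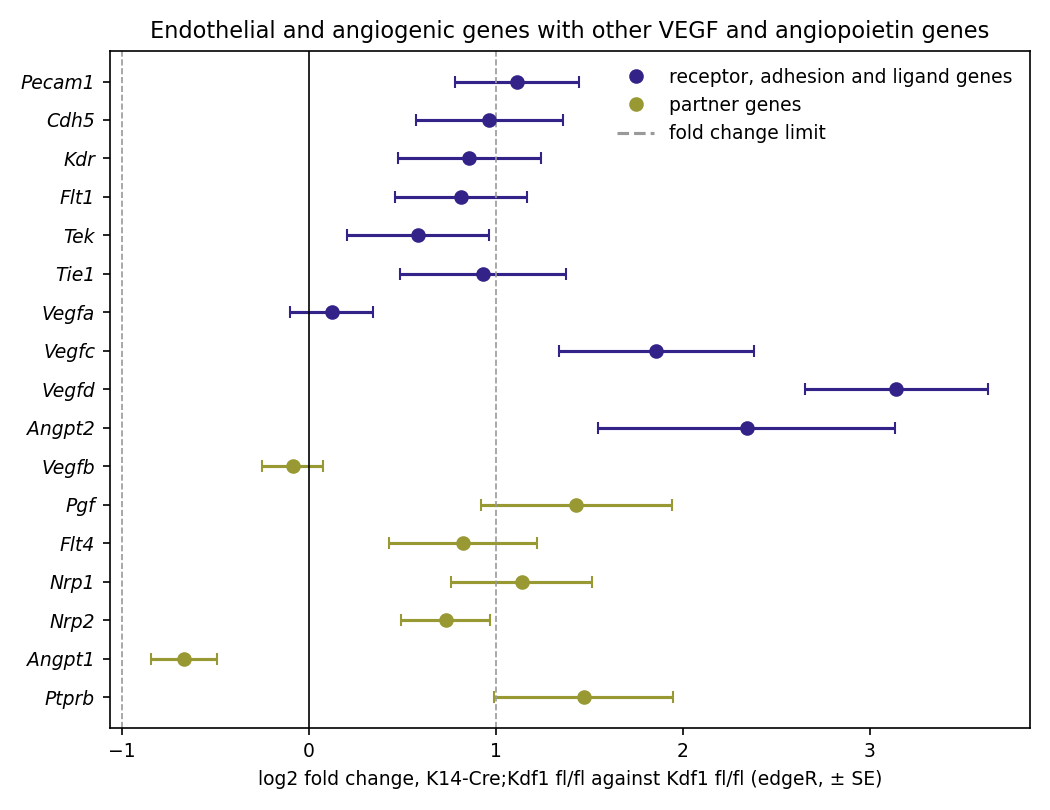
Log2 fold change (cKO over control, edgeR) of the 10 genes and of 7 tested genes of VEGF and angiopoietin signalling (partner genes), with bars of 1 standard error. *Vegfd* is highest at 3.14, the receptors lie between 0.58 and 1.11, and *Angpt1* and *Vegfb* are below 0.

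Other endothelial genes were likewise higher on average. Of 20 other endothelial markers, 19 were higher on average, with a median log2 fold change of 0.88 (0.45 without cKO replicate 1). No gene of them passed in edgeR, where 11 were higher at an unadjusted p of at most 0.05, against 13.0% of all genes. DESeq2 called *Esam* and *Robo4* higher (5.05% of all genes) and the blocked fit *Robo4* (4.16%). Neither fit called any of the 20 once replicate 1 was left out, of the cKO group in DESeq2 and of both groups in the blocked fit. Of the 20, *Ramp2* alone had an adjusted p of at most 0.05 in DESeq2 without cKO replicate 1 (0.00621). Its log2 fold change there was 0.76, under the fold limit. *Eng*, the TGF-beta co-receptor of endothelium, was at 53.7 to 75.8 CPM in control and 57.9 to 211 CPM in cKO libraries. *S1pr1*, a sphingosine 1-phosphate receptor, was at 60.4 to 71.8 and 61.9 to 186 CPM, and *Cd34*, a sialomucin of vessel walls, at 50.5 to 61.8 and 56.2 to 141 CPM. The summed level of the 20 markers was 379 to 493 TPM in control libraries and 1280, 691 and 539 TPM in cKO 1, 2 and 3.

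Transcription factors of endothelium were higher on average in 12 of 12 cases, with a median of 0.96 (0.50 without cKO replicate 1, which was the highest library for 11 of them). *Ets1* and *Erg* of the ETS family and *Mef2c* had adjusted p-values of 0.187, 0.182 and 0.399 in edgeR's quasi-likelihood test. None passed in edgeR, where 8 were higher at an unadjusted p of at most 0.05, against 13.0% of all genes. DESeq2 called *Fli1*, *Gata2* and *Hhex* higher (5.05% of all genes) and the blocked fit *Gata2* (4.16%). Without replicate 1, DESeq2 called 0 and the blocked fit *Gata2*. Lymphatic markers were at low levels, with 1.07 to 3.54 TPM in sum in control and 2.93 to 12.4 TPM in cKO libraries. Of the 4 tested, all were higher on average, with a median of 1.49 (1.30 without cKO replicate 1). At an unadjusted p of at most 0.05, 3 were higher, against 13.0% of all genes, and 0 passed in edgeR. *Lyve1*, a hyaluronan receptor of lymphatic vessels and of some macrophages, was at 0.253 to 1.27 CPM in control and 1.32 to 7.72 CPM in cKO libraries. *Prox1*, the master regulator of lymphatic identity, was at 0.316 to 0.909 and 1.06 to 2.39 CPM. DESeq2 called *Lyve1* and *Reln* higher (5.05% of all genes) and the blocked fit *Prox1* (4.16%). These calls were lost without replicate 1, where DESeq2 called 0, with 1.96 in log2 for *Lyve1* and 0.95 for *Reln*, and the blocked fit called *Lyve1* alone. *Mmrn1* overlapped, with an adjusted p of 0.275 in edgeR's quasi-likelihood test.

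Markers of other cells of the stroma were also higher in cKO 1. Of 10 mural cell markers, 9 were higher on average, with a median of 0.91 that was 0.18 without cKO replicate 1. Their summed level was 246 to 329 TPM in control libraries and 1060, 334 and 274 TPM in cKO 1, 2 and 3. No mural marker passed in edgeR, where 4 were higher at an unadjusted p of at most 0.05, against 13.0% of all genes. DESeq2 called *Pdgfrb* and *Abcc9* higher (5.05% of all genes) and the blocked fit *Pdgfrb* (4.16%). Without replicate 1, DESeq2 called *Pdgfrb* and the blocked fit *Pdgfrb* and *Kcnj8*. *Acta2*, the smooth muscle actin, was at 57.3 to 129 CPM in control and 83.3 to 470 CPM in cKO libraries, while the pericyte gene *Rgs5* was at 80.6 to 104 and 113 to 262 CPM. *Notch3*, the mural Notch receptor, had a log2 fold change of -0.05.

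Macrophage markers summed to 72.9 to 171 TPM in control libraries and 455, 211 and 135 TPM in cKO 1, 2 and 3, with 10 of 10 higher on average and a median of 1.21. The cKO 1 library was the highest for all 10, and without it 8 of 10 were higher with a median of 0.84. At an unadjusted p of at most 0.05, 6 were higher, against 13.0% of all genes, and 0 passed in edgeR or in the blocked fit. DESeq2 called *Csf1r*, *C1qa*, *C1qb* and *Mrc1* higher, against 5.05% of all genes. Without replicate 1, DESeq2 called 0 and the blocked fit *Mrc1*. Megakaryocyte and platelet markers summed to 14.4 to 27.4 and 28.8 to 56.3 TPM. Of the 3 tested, *Gp1bb* was called higher by DESeq2 (5.05% of all genes) and by the blocked fit (4.16%), and not by edgeR. Both calls held without replicate 1. At an unadjusted p of at most 0.05, 2 were higher, against 13.0% of all genes, and *Pf4* and *Itga2b* missed the criterion in all 3 fits. Erythroid markers, haemoglobin genes such as *Hba-a1* among them, had a median of 0.01 (-0.30 without cKO replicate 1), with 4370 to 6650 TPM in control and 4460 to 7200 TPM in cKO libraries. None of the 7 tested was called by edgeR, DESeq2 or the blocked fit, and 0 had an unadjusted p of at most 0.05.

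Dental papilla markers had a median of 1.45 (1.26 without cKO replicate 1) and were higher on average in 12 of 14 cases. *Twist1*, a mesenchymal transcription factor, rose, from a range of 8.97 to 16.5 CPM in control libraries to one of 41.9 to 75.9 CPM in cKO libraries, with an adjusted p of 0.0498 in edgeR's quasi-likelihood test. DESeq2 called 7 higher and 1 lower, against 5.05% and 1.88% of all genes, and the blocked fit 7 and 1, against 4.16% and 1.92%. Without replicate 1, DESeq2 called 5 higher and 0 lower and the blocked fit 8 and 1. *Col3a1* was higher in every cKO library, *Col1a1* overlapped and *Dspp*, the odontoblast product, was lower in every cKO library. Dental epithelium markers had a median of -0.83 (-0.69 without cKO replicate 1), with 9 of 11 lower on average. DESeq2 called 4 of them lower and the blocked fit 5, with and without replicate 1. With all libraries, 1.88% of all genes were called lower by DESeq2 and 1.92% by the blocked fit. *Cdh1*, which encodes E-cadherin, fell, from a range of 650 to 1028 CPM in control libraries to one of 265 to 350 CPM in cKO libraries, with an adjusted p of 0.0498 in edgeR's quasi-likelihood test. *Krt14*, *Krt5* and *Amelx* were lower in every cKO library. Without cKO replicate 1 neither *Twist1* (1.93 in log2) nor *Cdh1* (-1.40) passed in edgeR, with an adjusted p of 0.104 for both in its quasi-likelihood test. The part of these stromal and epithelial markers in the values of the receptors and ligands was not tested.

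Genes that respond to low oxygen, to which *Vegfa* belongs, were split in direction. Of 14 tested hypoxia targets 8 were higher and 6 lower on average, with a median of 0.03. None passed in edgeR, where 1 higher and 2 lower had an unadjusted p of at most 0.05, against 24.5% of all genes in either direction. *Egln3*, an oxygen-sensing prolyl hydroxylase, was called higher by DESeq2 (5.05% of all genes) and by the blocked fit (4.16%). It was at 1.76 to 1.77 CPM in control and 3.46 to 9.37 CPM in cKO libraries. *P4ha2*, a collagen prolyl hydroxylase, was called lower by both fits, at 150 to 275 and 71.1 to 117 CPM, and *Ndrg1* by DESeq2. Of all genes, 1.88% were called lower by DESeq2 and 1.92% by the blocked fit. Without replicate 1, DESeq2 called *Egln3* alone and the blocked fit *P4ha2* and *Ndrg1*. *P4ha1* overlapped. Of 6 regulators the median was 0.11, with *Hif1a* at 202 to 216 CPM in control and 166 to 178 CPM in cKO libraries. *Epas1* and *Arnt* overlapped, and 0 of the 6 passed in edgeR. At an unadjusted p of at most 0.05, 1 was higher and 1 lower, against 24.5% of all genes in either direction. The blocked fit called 0. DESeq2 called *Hif3a* higher with all libraries (5.05% of all genes) but not without cKO replicate 1.

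Genes listed as angiogenesis inhibitors had a median of 0.42 (0.52 without cKO replicate 1), with 7 of 8 higher on average. The list held *Vash2* (0.72 in log2), and the action of its genes on vessels was not tested. *Thbs1*, thrombospondin-1, was at 23.6, 19.0 and 11.4 CPM in the controls and at 257, 109.5 and 59.0 CPM in the cKO libraries. All cKO libraries were above the controls, with an adjusted p of 0.0637 in edgeR's quasi-likelihood test, 2.81e-07 in DESeq2 and 0.00504 with the replicate block. DESeq2 also called *Thbs2* and *Adamts1* higher (5.05% of all genes), 4 of the 8 were higher at an unadjusted p of at most 0.05 (13.0%), and 0 passed in edgeR. Without replicate 1, DESeq2 called *Thbs1* and *Thbs2*, and the blocked fit called *Thbs1*, *Thbs2* and *Adamts1*. *Col18a1*, the source of endostatin, and *Serpinf1* overlapped.

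The levels over the 6 libraries were then compared between genes, by a distance that also grows with the size of a change. For each of 11597 genes with a mean of at least 5 CPM, log2 CPM was centred over the 6 libraries and its root mean square difference from *Cdh5* was taken. *Fes*, a tyrosine kinase gene, was nearest at 0.023, followed by *Eng* at 0.077, *Shank3* at 0.091, *Sema6d* at 0.109 and *Igsf3* at 0.120. *Kdr* ranked 8th, *Tie1* 13th, *Pecam1* 18th, *Flt1* 28th and *Tek* 167th in nearness to *Cdh5*. *Vegfa* ranked 4069th and *Angpt2* 6748th, and *Vegfc* and *Vegfd* were under the level needed for a rank. *Angpt2* shared the order of the cKO libraries with *Cdh5* but had a larger log2 fold change, 2.34 against 0.96. The genes nearest to *Vegfa* were *Zfp661* at 0.076, *Stx1a* at 0.091, *Dgat1* at 0.097, *Zc3h10* at 0.098 and *Sumf2* at 0.101. These distances share the same 6 libraries and describe them.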

How the data were processed

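RNA of the MM1 epithelium was sequenced in 3 control and 3 cKO libraries. Per the submitters' processing notes, BWA 0.7.12, Picard 2.6.0 and StringTie were used. Their roles, the counting program and the genome build are not given in the sources used here. The deposited estimated counts are the authors' reads per gene without normalisation, and 10.9% to 11.5% of them per library were not whole. The deposited TPM values are the authors' transcripts scaled by length and depth. The deposited FPKM values and the authors' group averages were not used.

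Estimated counts were rounded. Using edgeR 4.0.16 under R 4.3.3, low counts were removed by filterByExpr, libraries were scaled by TMM (factors 0.95 to 1.03) and groups were compared by robust quasi-likelihood F-tests, two-sided, with Benjamini-Hochberg adjustment over 14131 genes. CPM values used TMM-scaled library sizes. DESeq2 1.42.0, limma 3.58.1, other scalings and filters, a replicate block and leaving out each library were alternatives. The limit for a count of 0 is 3 counts and covers counting error only, since PCR copies are not independent molecules.

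The labels number the replicates in both groups. Deviations of same-numbered libraries from their group means correlated at 0.135, 0.324 and 0.499. Control 2 against cKO 1 gave 0.144, above the 0.135 of control 1 against cKO 1, so these correlations do not settle the pairing. The numbers were read as pairs only for the replicate block, an alternative fit, and no source says that they mark litters. The 10 genes and all lists were chosen with earlier results of these data known. Named were *Kdf1*, the 10 genes, the tested genes of VEGF and angiopoietin signalling, the genes past the criterion and the 3 most abundant of each other list, and the 5 genes nearest to *Cdh5* and to *Vegfa*. Other names were chosen after their values were seen. RefSeq windows were matched by symbol.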

Additional observations from a re-analysis of the deposited data

How the results depend on the processing

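Of the 10 genes, 0 passed the criterion in edgeR, also with DESeq2 size factors, library size alone, voom, no robust option, limma on log2 TPM and a minimum of 10 counts in every library, which removed *Vegfd*. The number was 1 with no filter (*Vegfd*), 4 in DESeq2, 2 with the replicate block and 5 at an unadjusted p of at most 0.05. Leaving out 1 library gave 0 to 3, with 3 (*Pecam1*, *Kdr* and *Vegfd*) without cKO replicate 3. Of the 7 other genes of VEGF and angiopoietin signalling, DESeq2 called 2, and 0 passed in edgeR with all or with any 5 libraries. Over all genes, 61 passed in edgeR, 7 with DESeq2 size factors, 9 with library size alone, 103 with no filter, 6 with at least 10 counts in every library, 980 in DESeq2, 6 in voom, 860 with the replicate block, 16 for log2(TPM + 1) and 1 to 465 when 1 library was left out. Of the calls, 20 of 61 were higher in edgeR, 714 of 980 in DESeq2 and 588 of 860 with the block. Chosen after seeing the data, DESeq2 without cKO replicate 1 called 1 of the 10 genes and 573 of all genes. The replicate block without replicate 1 of both groups, also chosen then, called 2 and 885. That fit had few libraries for its terms, yet called more genes than the 860 of the full block.

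Log2 fold changes changed sign in these cases, and the cause was not tested. In the block without replicate 1 of both groups they were -0.07 for *Tek*, 0.11 for *Vegfb*, -0.03 for *Arnt* and 0.00 for *Zc3h10*. In DESeq2 without cKO replicate 1 they were -0.07 for *Vegfa*, 0.01 for *Vegfb*, -0.04 for *Acta2*, -0.13 for *Col18a1*, -0.01 for *Zfp661* and -0.03 for *Zc3h10*. With library size alone they were 0.00 for *Notch3*, 0.02 for *Stx1a* and 0.06 for *Dgat1*. *Dgat1*, near 0 throughout, was 0.02 with DESeq2 size factors and in DESeq2, 0.01 with the minimum of 10 counts, and 0.14 and 0.15 for log2(TPM + 1) and log2(TPM + 0.1). Leaving out 1 library gave -0.06 to 0.35 for *Vegfa*, -0.20 to 0.03 for *Vegfb*, -0.02 to 1.53 for *Acta2*, -0.42 to 0.25 for *Notch3*, -0.19 to 0.20 for *P4ha1*, -0.32 to 0.08 for *Epas1*, -0.11 to 0.31 for *Col18a1*, -0.27 to 0.55 for *Serpinf1*, -0.32 to 0.02 for *Hba-a1*, -0.91 to 0.11 for *Col1a1*, -0.20 to 0.18 for *Stx1a*, -0.11 to 0.18 for *Dgat1* and -0.01 to 0.36 for *Zc3h10*. With counts as low as 7 in a control library, the size of the *Vegfd* fold change is imprecise.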
